A study of Mus musculus with 12 samples.

Results

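The genes described here are 48 genes whose products copy DNA at the replication fork or supply it with nucleotides. They were taken as the rows of the deposited count table that carry their symbols, and all 48 were present among its 23337 rows. All 48 also passed the filter on low counts that left 12406 genes for testing. By role they are 8 genes for the sliding clamp and its loaders, 9 for polymerases and primase, 3 for Okazaki fragment maturation, 5 for the helicase cofactors Cdc45 and GINS, 3 for single-stranded DNA binding, 4 for fork protection, 5 for nucleotide synthesis, 4 for chromatin assembly and histone supply, 3 for methylation maintenance and chromatin, and 4 for origins and S phase control. The data are RNA sequencing counts of 12 libraries from NU1, a line of normal mouse urothelial cells that became immortal by itself during serial passage.

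The libraries form 4 groups of 3, proliferating or quiescent cells with either a control hairpin (shNT, genotype label WT) or 1 hairpin against Stag2 (sh4, genotype label Stag2-KD). Each group has 1 library from experiments 5, 7 and 9, which the labels also number as batches 3, 1 and 2. Proliferating cells were kept in complete medium with EGF. Quiescent cells were grown to confluence in that medium and then held in it with rosiglitazone, a PPARγ agonist, at 1 µM and erlotinib, an inhibitor of the EGF receptor kinase, at 0.5 µM, and their labels give day 7 of differentiation. Confluence, both agents and time in culture changed together between the states and cannot be told apart. With a single hairpin and a single line, loss of Stag2 and any other action of that hairpin cannot be told apart either.

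At a replication fork the CMG helicase (the MCM ring with Cdc45 and GINS) unwinds DNA, primase and polymerase alpha start each strand, and polymerases epsilon and delta extend the leading and lagging strands while held by the PCNA ring. Ribonucleotide reductase, thymidylate synthase, thymidine kinase and dUTPase provide the deoxynucleotides, and histone chaperones rebuild chromatin behind the fork. Most of these genes are E2F targets, expressed in cycling cells and held down in quiescent ones by complexes that include DREAM, which the title of the series names together with STAG2, a subunit of the cohesin ring. The adult urothelium turns over slowly, and its cells are mostly out of the cycle.

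Library totals ran from 14524429 to 21987539 counts, and the 48 genes took 0.250% ± 0.0260 of all counts in proliferating controls against 0.0660% ± 0.00496 in quiescent controls (SD, n = 3 each). Levels are given as CPM, counts scaled to a common library total after TMM normalization, always in the order of experiments 5, 7 and 9. They are relative to each library's total, and in these bulk samples fewer cells of a type and less RNA per cell cannot be told apart. Stag2 stood at 139, 145 and 113 CPM in proliferating controls and 33.3, 24.9 and 24.6 with the Stag2 hairpin, and at 128, 126 and 107 in quiescent controls and 9.43, 15.3 and 11.7 with it. The log2 fold change of Stag2 was -2.26 ± 0.19 (SE, adjusted p = 0.00121) in proliferating and -3.32 ± 0.20 (SE, adjusted p = 3.39e-05) in quiescent cells, so the target fell in every library that carries the hairpin. Of 13 urothelial and epithelial markers, Krt8, Krt18, Krt7, Epcam and Cdh1 had group means of at least 456 CPM. The basal keratins Krt5 and Krt14 had group means of at most 9.08 CPM, Grhl3 and the uroplakins Upk1a, Upk1b, Upk2 and Upk3a, which define mature urothelium, of at most 2.55 CPM, and Trp63 had no count. The summed level of 7 fibroblast markers was at most 2.27 CPM, that of 5 leukocyte markers at most 9.42 CPM and that of 4 endothelial markers at most 0.239 CPM in any library.

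Promoter sequences are shown because these genes moved together between the states, and because E2F-type letters are what the known regulators of such genes read. For 39 of the 48 genes a promoter entry was matched by symbol in RefSeq (build GRCm38.p6), giving 46 windows of 300 bases, 250 before and 50 after each start, which can differ from the start of the gene models used below for positions. No entry was matched for Rfc2, Dscc1, Prim2, Pole, Gins1, Gins2, Gins4, Tipin and Atad2. The letters TTCCCGC, the letters TTCGCGC, the letters TTGGCGC or the letters TTGCCGC, searched on both strands, were found in 27 of the 46 windows (58.7%), against 16.8% of 11414 windows of the tested genes and 9.57% of all 32851 windows. The CHR letters TTTGAA were found in 13.0% of member windows, against 11.8% of those of tested genes and 17.9% of all. The CCAAT box (CCAAT) was in 56.5%, 38.0% and 37.4% of the same sets, and the GC box (GGGCGG) in 67.4%, 63.2% and 35.7%. Of these 4 motifs the E2F-type letters had the widest gap between member windows and the others, and the CHR letters stood at a like share in member windows and in those of tested genes. Of the 39 E2F-type matches in member windows, 13 lay within 70 bases before the start, 16 after it and 10 further upstream. A match describes letters in this window and not a bound site.

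The next windows show 30 bases around an E2F-type match (capitals) in 3 genes that passed the threshold in quiescent knockdown cells with the experiment as a term (Clspn, Rrm2 and Wdhd1) and in Pold3, whose fall in quiescence was the second smallest. Each is written 5′ to 3′ on the gene's strand, so that a match on the other strand appears as its reverse complement.
Clspn (chr4:126556990-126557019, plus strand): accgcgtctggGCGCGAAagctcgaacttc
Rrm2 (chr12:24708008-24708037, plus strand): caccaacctcaGCGGCAAcgcccgcccggc
Wdhd1 (chr14:47276820-47276849, minus strand): cgcgccagagcGCGGGAAgcggctccgtgc
Pold3 (chr7:100121466-100121495, minus strand): agcgaagctgtTTCCCGCcggcgggagcta
Counted from 1 at the start and from -1 before it, the Rrm2 match lies at -235 to -229, whereas those shown for Clspn, Wdhd1 and Pold3 begin at 22, 20 and 19. Wdhd1 has another match at -181 to -175. Pold3 thus holds the same kind of letters as genes that fell far more. The genes shown were picked among those with a match. The windows of Tk1, Asf1b and Dna2, which also fell far more than Pold3, hold no E2F-type match.

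For 3 further genes the 100 bases before the start are shown whole, with E2F-type matches in capitals. Dtl and Tcf19 are 2 of the 3 members called in quiescent knockdown cells, and Chaf1a, called with the experiment as a term, has a pair of matches side by side.
Dtl (chr1:191575545-191575644, minus strand): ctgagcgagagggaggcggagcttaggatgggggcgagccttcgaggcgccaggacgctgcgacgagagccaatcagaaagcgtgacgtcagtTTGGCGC
Tcf19 (chr17:35516825-35516924, minus strand): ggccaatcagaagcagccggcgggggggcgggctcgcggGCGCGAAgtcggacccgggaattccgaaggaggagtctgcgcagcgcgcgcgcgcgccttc
Chaf1a (chr17:56040316-56040415, plus strand): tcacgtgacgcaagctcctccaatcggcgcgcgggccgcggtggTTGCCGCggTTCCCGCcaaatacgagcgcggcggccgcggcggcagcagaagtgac
The Dtl match shown lies at -7 to -1, the Tcf19 match at -61 to -55, and the Chaf1a matches at -56 to -50 and -47 to -41. Dtl has another match at -109 to -103, outside the bases shown. All 3 stretches also hold the letters CCAAT further upstream of the matches shown.

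**Figure D1:**
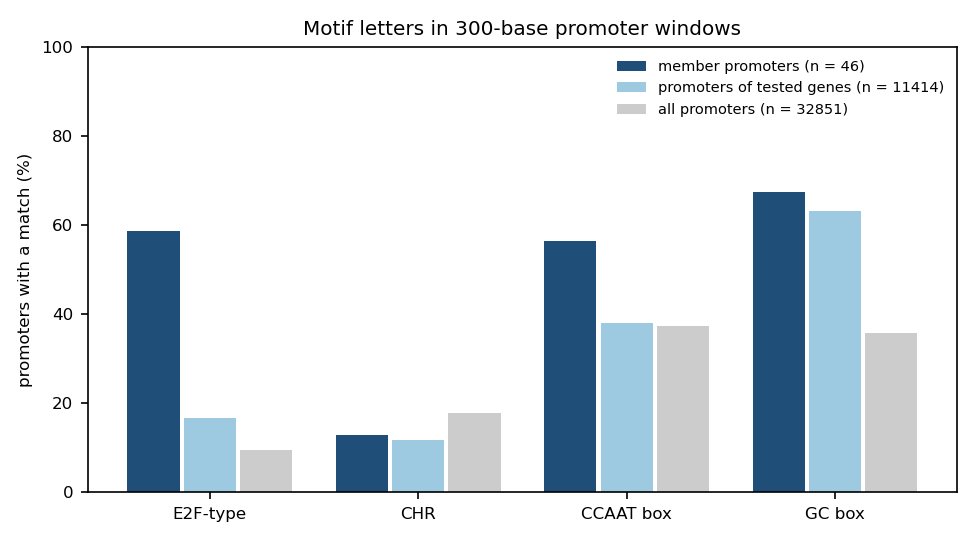
Share of promoter windows (vertical axis, percent) that hold each motif's letters, for the 46 windows of the replication and nucleotide synthesis genes, the 11414 windows of tested genes and all 32851 windows. The E2F-type letters are in 58.7% of member windows and in 16.8% and 9.57% of the others, while the CHR letters are in 13.0%, 11.8% and 17.9%.

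In control cells every one of the 48 genes fell in quiescence. The fit of edgeR, adjusted over all 12406 genes, called 48 of 48 lower at the threshold of 0.05, where 11.7% of all tested genes were called lower (n = 3 libraries a group here and throughout). With a term for the experiment, 48 were called lower as well, against 18.5% of all genes. The median log2 fold change of the members was -2.29 (all genes 0.00), from -0.48 for Rfc1 to -5.38 for Clspn. All 3 quiescent control libraries lay below all 3 proliferating ones for 48 members, a pattern that 18.5% of all genes showed. The number of members called lower was 41 when the 4 libraries of experiment 7 were left out, an alternative added after seeing the data. That fit had no experiment term, and its share of all genes called is not reported here.

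With the Stag2 hairpin the same step was shallower in value. Of the 48 genes 46 were called lower, against 10.8% of all genes, and with the experiment term 47, against 17.2%. The median log2 fold change was -1.71 (all genes 0.00). For all 48 the 3 quiescent libraries again lay below the 3 proliferating ones, which held for 19.1% of all genes. The members that missed the threshold were Gins3, at -0.60 ± 0.20 (SE, adjusted p = 0.0635), and Gins4, at -0.33 ± 0.13 (SE, adjusted p = 0.10). With the experiment term Gins3 passed it (adjusted p = 0.0356) and Gins4 did not (adjusted p = 0.0532).

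**Figure D2:**
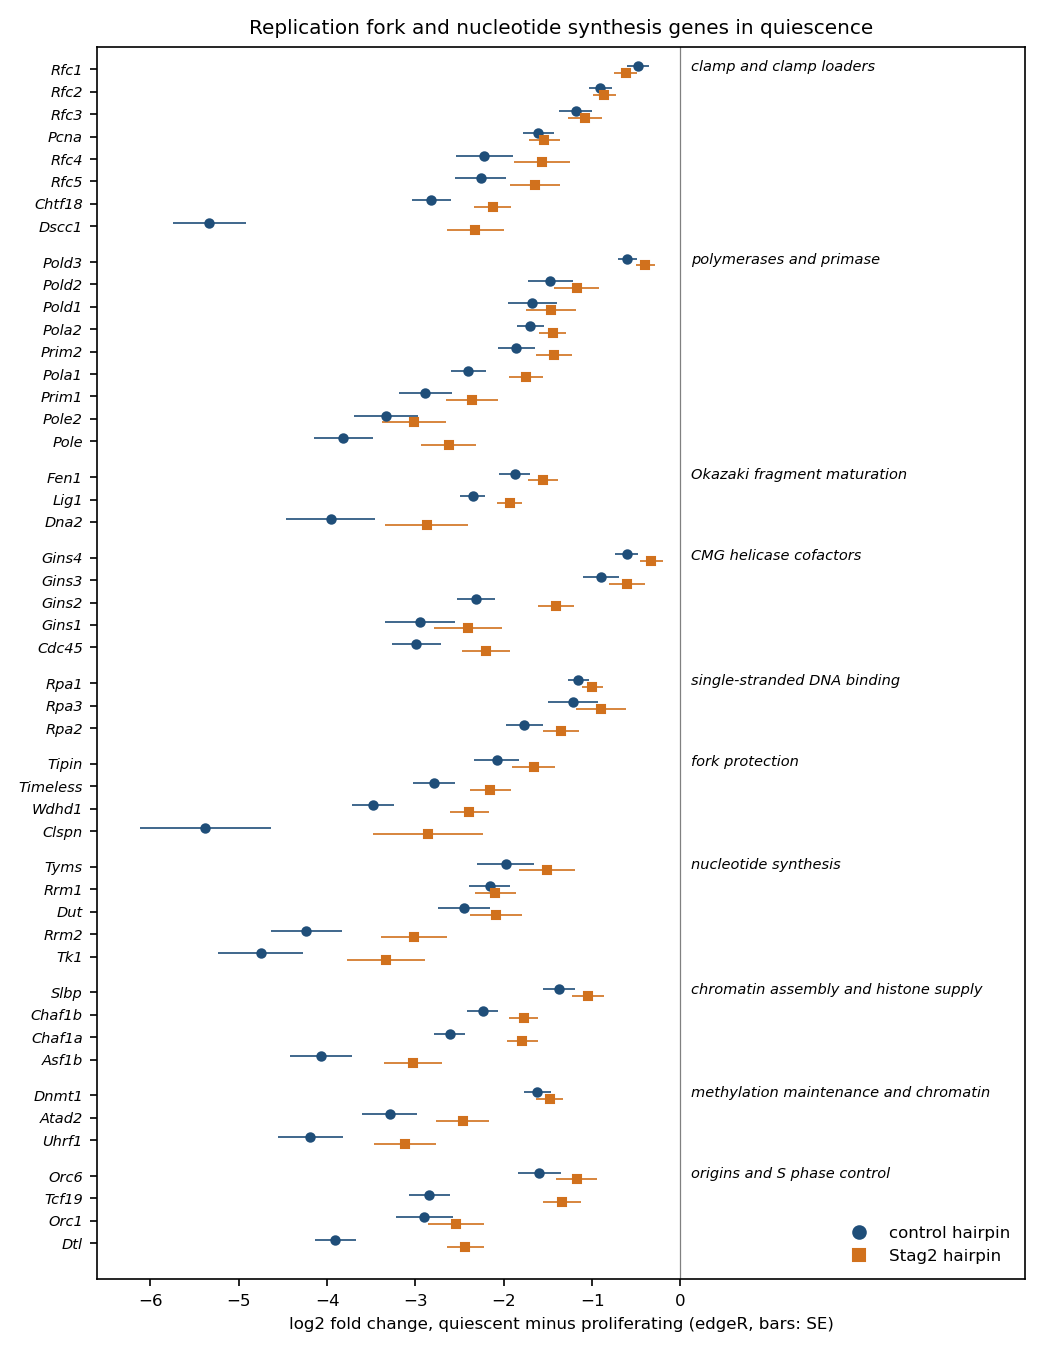
Log2 fold change between quiescent and proliferating cells (horizontal axis, edgeR, bars are SE) of the 48 genes by role, for the control hairpin (circles) and the Stag2 hairpin (squares). Every circle lies below 0, from -0.48 for Rfc1 to -5.38 for Clspn, and for 47 of the 48 genes the square lies to the right of the circle.

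Per kilobase of merged exons (GENCODE M21), the proliferating control means of the members ran from 2.32 CPM per kb for Dna2 to 123 for Pcna. The next highest on this scale were Rrm2 at 70.1, Rrm1 at 51.3 and Tk1 at 39.7. The other 2 nucleotide synthesis genes, Dut at 27.1 and Tyms at 10.8, lay below Pold2 at 32.5 and Fen1 at 31.5. Merged exons, 3163 bases for Tyms, can be longer than the transcript in use, so ranks on this scale depend on that length. In quiescent controls Pcna was at 40.4 CPM per kb and Gins4 at 20.7, whereas Dscc1 was at 0.0681, Clspn at 0.0998 and Dna2 at 0.147. Exons of 18 members overlap another gene, on the opposite strand for 16 of them, and whether the counting used strand is not given in the sources used here. The 16 are Rfc2, Rfc4, Rfc5, Chtf18, Pole, Fen1, Lig1, Gins2, Cdc45, Wdhd1, Timeless, Tk1, Chaf1a, Slbp, Orc1 and Orc6, and Pole2 and Rpa1 overlap a gene on their own strand. Depending on how shared reads were treated, the counts of all 18 may include reads of the other gene or lack reads from the shared bases.

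Pcna, the ring that clamps polymerases to DNA, stood at 158, 198 and 207 CPM in proliferating controls, 132, 175 and 182 in proliferating knockdown cells, 51.5, 70.9 and 61.8 in quiescent controls and 53.1, 63.8 and 51.2 in quiescent knockdown cells. Its quiescent libraries lay below all proliferating ones and the hairpins overlapped in both states. The fall in control cells was -1.61 ± 0.17 (SE, adjusted p = 0.000163) on the log2 scale, and the knockdown effect in quiescent cells was -0.13 ± 0.17 (SE, adjusted p = 0.830). The loader that opens this ring, RFC, joins the large subunit Rfc1 to 4 small ones. Rfc1 was at 86.7, 85.6 and 99.6 CPM in proliferating and 64.4, 64.2 and 66.3 in quiescent controls, and at 83.9, 71.1 and 91.5 and 46.6, 59.8 and 53.9 with the Stag2 hairpin. Its change in controls, -0.48 ± 0.13 (SE, adjusted p = 0.0218), was the smallest of all members. It was also the only member whose 3 quiescent knockdown libraries all lay below the 3 quiescent control ones, at -0.28 ± 0.13 (SE, adjusted p = 0.409), which did not pass the threshold. Rfc2 was at 44.8, 49.9 and 59.4 CPM in proliferating and 26.2, 28.5 and 27.6 in quiescent controls, and at 47.9, 49.4 and 59.9 and 29.2, 29.6 and 27.6 with the Stag2 hairpin. Its levels with the hairpins overlapped in both states, and it fell by 0.91 ± 0.13 (SE) in controls.

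Across the RFC subunits the quiescence effect in controls was graded, -0.48 for Rfc1, -0.91 for Rfc2, -1.18 for Rfc3, -2.22 for Rfc4 and -2.26 for Rfc5. Per kilobase, Rfc1 was at 18.9 CPM and Rfc5 at 12.5 in proliferating controls, and at 13.5 and 2.60 in quiescent ones. On this scale, which depends on the merged exon length, subunits of 1 loader thus went from like levels to levels several-fold apart. The knockdown effect in quiescent cells was 0.52 for Rfc4 and 0.58 for Rfc5, whose quiescent knockdown libraries all lay above the controls, and 0.07 for Rfc2 and 0.05 for Rfc3. None of these 4 passed the threshold.

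Dscc1 and Chtf18 belong to an alternative loader, CTF18-RFC, which shares the small RFC subunits and is known for its part in sister chromatid cohesion. Dscc1 (chr15:55076099-55090491, minus strand) was at 4.66, 4.56 and 4.26 CPM in proliferating controls, 3.32, 5.18 and 4.71 in proliferating knockdown cells, 0.0690, 0.0612 and 0.179 in quiescent controls and 0.907, 0.895 and 0.820 in quiescent knockdown cells. The quiescent controls rest on 1, 1 and 3 counts, and every quiescent knockdown library lay above every one of them. On summed counts, 49 in knockdown against 5 in control, the ratio, scaled to library totals, was 8.35 (95% interval 3.34 to 26.8, exact, for counting error only). The knockdown effect in quiescent cells was 2.98 ± 0.42 (SE, adjusted p = 0.0139) on the log2 scale, and the fall in control cells -5.33 ± 0.41 (SE, adjusted p = 2.99e-05), both from fitted values that depend on the prior count. Of its proliferating level, 1.48, 1.34 and 4.2 percent was left in quiescent controls and 27.3, 17.3 and 17.4 percent with the Stag2 hairpin. Chtf18 fell by 2.82 ± 0.22 in controls, and its knockdown effect in quiescent cells was 0.40 ± 0.21 (SE, adjusted p = 0.513).

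Polymerase epsilon extends the leading strand, and Pole (chr5:110286306-110337474, plus strand) encodes its catalytic subunit. Pole was at 50.7, 70.8 and 72.3 CPM in proliferating controls and 43.5, 50.1 and 79.5 in proliferating knockdown cells, with overlap. In quiescent controls it was at 3.93, 5.02 and 4.77 CPM and in quiescent knockdown cells at 5.39, 12.2 and 10.5, and all 3 knockdown libraries lay above the controls, with experiment 5 nearest. The fall in control cells was -3.82 ± 0.33 (SE, adjusted p = 5.92e-05), and the knockdown effect in quiescent cells 1.03 ± 0.32 (SE, adjusted p = 0.208). With the experiment term that effect was 0.99 ± 0.21 (SE, adjusted p = 0.0318), past the threshold. Pole2, its second subunit, fell by 3.33 ± 0.37 in controls, and its knockdown effect in quiescent cells was -0.93, 0.74 and 0.03 by experiment, with no shared direction.

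Polymerase delta extends Okazaki fragments. Its accessory subunit Pold3 was at 36.5, 40.1 and 38.1 CPM in proliferating and 24.9, 24.6 and 26.0 in quiescent controls, and at 33.7, 38.2 and 40.3 and 26.8, 29.6 and 28.7 with the Stag2 hairpin. All quiescent libraries lay below all proliferating ones, and the log2 fold change in controls, -0.60, was the second smallest of the set. The catalytic Pold1 and the accessory Pold2 changed by more, -1.68 and -1.47. Their knockdown effects in quiescent cells were -0.03 for Pold1, 0.04 for Pold2 and 0.17 for Pold3, none past the threshold. Polymerase alpha (Pola1, catalytic, and Pola2) works with primase (Prim1, catalytic, and Prim2), which lays the RNA primers. In controls Pola1 fell by 2.40, Pola2 by 1.70, Prim1 by 2.89 and Prim2 by 1.86 on the log2 scale. Pola2 was also the only member whose 3 proliferating knockdown libraries all lay below the controls, at 40.7, 41.4 and 47.2 against 48.1, 52.0 and 47.6 CPM, which did not pass the threshold at -0.19 ± 0.15 (SE, adjusted p = 1.00). Both catalytic subunits of polymerase alpha-primase had the deeper fall of their pair.

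Fen1, the nuclease that trims Okazaki fragment flaps, was at 73.0, 68.0 and 88.1 CPM in proliferating and 18.4, 22.2 and 21.7 in quiescent controls, and at 63.5, 69.8 and 90.8 and 27, 27.8 and 21.3 with the Stag2 hairpin. It fell by 1.88 in controls, and the quiescent hairpin groups overlapped through experiment 9. Lig1, the ligase that seals the fragments, fell by 2.35, and Dna2, a nuclease and helicase for long flaps, by 3.96 in controls. The 3 quiescent knockdown libraries of Lig1 and of Dna2 lay above the controls, but their effects, 0.29 and 0.90, did not pass the threshold.

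Cdc45 and the 4 GINS proteins turn the MCM ring into an active helicase. Cdc45 was at 20.7, 21.8 and 24.8 CPM in proliferating controls, 15.0, 17.2 and 23.1 in proliferating knockdown cells, 1.66, 3.55 and 3.22 in quiescent controls and 3.63, 4.35 and 4.04 in quiescent knockdown cells. It was lower with the Stag2 hairpin in all 3 experiments of the proliferating state and higher in all 3 of the quiescent one, with neither effect past the threshold (-0.28 and 0.51). Gins4 was at 41.0, 38.0 and 48.5 CPM in proliferating and 26.1, 26.8 and 30.8 in quiescent controls, and at 41.0, 40.8 and 47.3 and 37.4, 33.2 and 31.9 with the hairpin. Its 2 quiescent groups did not overlap, and they lay just below the proliferating libraries. In controls Gins1 fell by 2.94, Gins2 by 2.32, Gins3 by 0.90 and Gins4 by 0.61, so the subunits of this 4-part complex were as uneven as those of RFC. Gins2, Gins3 and Gins4 had all quiescent knockdown libraries above the controls, by 0.72, 0.29 and 0.29, none past the threshold.

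Rpa2, the middle subunit of the protein that coats single-stranded DNA, was at 21.0, 21.1 and 19.2 CPM in proliferating and 6.42, 6.67 and 4.89 in quiescent controls, and at 17.3, 21.8 and 18.1 and 7.34, 9.42 and 5.62 with the Stag2 hairpin. The states were apart in every library and the hairpins overlapped in both. The falls in controls were -1.16 for Rpa1, -1.77 for Rpa2 and -1.22 for Rpa3, the shallowest of the roles by median (-1.22).

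Clspn encodes claspin, the adaptor that passes a stalled fork's signal to Chk1. Clspn (chr4:126556935-126593903, plus strand) was at 18.3, 22.6 and 24.2 CPM in proliferating controls, 16.0, 20.0 and 23.4 in proliferating knockdown cells, 0, 0.551 and 0.954 in quiescent controls and 0.861, 4.41 and 2.99 in quiescent knockdown cells. The quiescent control of experiment 5 held no count, which allows a level of up to 0.207 CPM, and the other 2 held 9 and 16 counts. Within each experiment the knockdown library was the higher one, although experiment 5 with the hairpin lay below experiment 9 without it. On summed counts, 144 against 25, the ratio, scaled to library totals, was 4.91 (95% interval 3.19 to 7.83). The knockdown effect was 2.39 ± 0.72 (SE, adjusted p = 0.197) and, with the experiment term, 2.36 ± 0.57 (SE, adjusted p = 0.0490). It passed with that term in only 2 of 12 fits that left out 1 library each, an alternative added after seeing the data.

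Wdhd1, which tethers polymerase alpha to the helicase, was at 26.1, 33.4 and 28.0 CPM in proliferating controls, 25.3, 30.7 and 26.2 in proliferating knockdown cells, 2.83, 3.00 and 1.97 in quiescent controls and 3.99, 6.68 and 5.04 in quiescent knockdown cells. The quiescent groups did not overlap. The knockdown effect was 1.01 ± 0.23 (SE, adjusted p = 0.0939) without and 1.00 ± 0.18 (SE, adjusted p = 0.0182) with the experiment term. Timeless and Tipin, the pair that steadies paused forks, fell by 2.79 and 2.08 in controls, and their knockdown effects in quiescent cells, 0.31 and 0.40, did not pass the threshold.

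Ribonucleotide reductase makes deoxynucleotides from a large subunit, Rrm1, and a small one, Rrm2, that is known to be limiting. Rrm2 (chr12:24708241-24714146, plus strand) was at 129, 189 and 143 CPM in proliferating controls, 106, 192 and 207 in proliferating knockdown cells, 5.24, 12.9 and 6.26 in quiescent controls and 15.2, 28.8 and 18.6 in quiescent knockdown cells. The quiescent groups did not overlap, the lowest knockdown library (experiment 5) lying just above the highest control (experiment 7). Its knockdown effect in quiescent cells was 1.35 ± 0.37 (SE, adjusted p = 0.159), and with the experiment term 1.39 ± 0.21 (SE, adjusted p = 0.00928), past the threshold. Rrm1 was at 181, 205 and 229 CPM in proliferating controls, 143, 188 and 268 in proliferating knockdown cells, 41.1, 42.2 and 54.4 in quiescent controls and 41.8, 57.5 and 41.0 in quiescent knockdown cells. The hairpin groups overlapped for Rrm1, and the effect was 0.03 ± 0.22 (SE, adjusted p = 0.980). In controls Rrm1 fell by 2.16 and Rrm2 by 4.23, and 4.07, 6.83 and 4.37 percent of the proliferating Rrm2 level was left by experiment, against 14.4, 15.0 and 8.96 percent with the Stag2 hairpin.

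Tk1, the thymidine kinase of the salvage route, was at 51.1, 57.4 and 62.9 CPM in proliferating controls, 37.6, 58.1 and 69.7 in proliferating knockdown cells, 1.04, 1.77 and 3.46 in quiescent controls and 3.04, 9.18 and 4.34 in quiescent knockdown cells. In each experiment the knockdown library was the higher quiescent one, but the groups overlapped (3.04 with the hairpin in experiment 5, 3.46 without it in experiment 9). The fall in controls, -4.75 ± 0.48 (SE, adjusted p = 0.000122), was the third largest, and the knockdown effect in quiescent cells, 1.37 ± 0.46 (SE, adjusted p = 0.251), did not pass the threshold with or without the experiment term (adjusted p = 0.0651 with it). Tyms, which makes thymidylate, fell by 1.98 and Dut, which removes dUTP, by 2.45 in controls. The Tyms value is uncertain, since the table also has a row for a processed copy, Tyms-ps. Their knockdown effects in quiescent cells were 0.47 and 0.19, neither past the threshold.

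CAF-1 loads new histones behind the fork through PCNA. Its large subunit Chaf1a (chr17:56040439-56072289, plus strand) was at 52.2, 56.7 and 48.1 CPM in proliferating controls, 44.1, 56.4 and 46.2 in proliferating knockdown cells, 7.94, 10.4 and 7.28 in quiescent controls and 13.6, 16.6 and 12.2 in quiescent knockdown cells. Chaf1b was at 40.1, 34.9 and 42.9 CPM in proliferating controls, 36.8, 38.9 and 44.4 in proliferating knockdown cells, 7.04, 9.67 and 8.23 in quiescent controls and 9.88, 13.7 and 11.5 in quiescent knockdown cells. Both subunits were higher with the Stag2 hairpin in all 3 quiescent experiments, with no overlap of the groups, and both hairpins overlapped in proliferating cells. The difference within experiments was close to constant, 0.77, 0.67 and 0.74 for Chaf1a and 0.48, 0.50 and 0.48 for Chaf1b on the log2 scale. Chaf1a missed the threshold without the experiment term, at 0.73 ± 0.17 (SE, adjusted p = 0.109), and passed with it, at 0.73 ± 0.11 (SE, adjusted p = 0.0109). Chaf1b passed neither (adjusted p = 0.262 and 0.107). Asf1b, which hands histones to CAF-1, and Slbp, which binds the stem-loop of histone messages, fell by 4.07 and 1.38 in controls, with knockdown effects of 0.96 and 0.39 in quiescent cells that missed the threshold.

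Uhrf1, which brings the maintenance methylase Dnmt1 to newly copied DNA, was at 104, 132 and 90.9 CPM in proliferating controls, 84.9, 109 and 90.2 in proliferating knockdown cells, 7.31, 6.55 and 4.06 in quiescent controls and 7.84, 18 and 6.97 in quiescent knockdown cells. Experiment 7 with the hairpin stood well above the other quiescent libraries, and the rest overlapped. In controls Uhrf1 fell by 4.19, Dnmt1 by 1.62 and Atad2, a chromatin ATPase with a bromodomain, by 3.29. Of these, only Atad2 had non-overlapping quiescent groups, and its knockdown effect of 0.56 did not pass the threshold.

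Orc1, the large subunit of the origin recognition complex, was at 7.52, 10.9 and 11.1 CPM in proliferating controls, 6.53, 9.12 and 9.12 in proliferating knockdown cells, 0.828, 1.59 and 1.49 in quiescent controls and 1.18, 1.85 and 1.23 in quiescent knockdown cells. Its hairpin groups overlapped in both states. Orc1 fell by 2.90 and Orc6 by 1.60 in controls. Orc6 had all quiescent knockdown libraries above the controls, by 0.31, short of the threshold.

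Dtl encodes the receptor through which the CRL4 ubiquitin ligase destroys the licensing factor Cdt1 on PCNA-loaded chromatin. Dtl (chr1:191537356-191575544, minus strand) was at 34.2, 34.9 and 36.8 CPM in proliferating controls, 30.2, 31.1 and 37.3 in proliferating knockdown cells, 2.14, 2.45 and 2.45 in quiescent controls and 4.81, 8.47 and 4.98 in quiescent knockdown cells. The quiescent controls were tightly grouped and all knockdown libraries lay above them, experiment 7 highest. Dtl rose 2.58-fold with the Stag2 hairpin in quiescent cells, 1.37 ± 0.22 (SE, adjusted p = 0.0296) on the log2 scale, and its quiescence effect in controls was -3.91. Tcf19, a transcription factor induced late in G1, was at 18.3, 17.5 and 11.3 CPM in proliferating controls, 14.5, 19.2 and 15.7 in proliferating knockdown cells, 2.07, 2.51 and 1.97 in quiescent controls and 6.26, 7.10 and 6.15 in quiescent knockdown cells. Its quiescent groups were narrow and far apart. Tcf19 (chr17:35512734-35516824, minus strand) rose 2.97-fold, 1.57 ± 0.23 (SE, adjusted p = 0.0180), with differences of 1.54, 1.46 and 1.59 within the experiments. In quiescent controls 11.3, 14.3 and 17.5 percent of its proliferating level was left, and with the hairpin 43.1, 37.0 and 39.3 percent.

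In proliferating cells the Stag2 hairpin moved none of the 48 genes past the threshold. edgeR called 0 of them without and 0 with the experiment term, where 0.0242% of all genes were called in either fit (Stag2 among them). DESeq2 also called 0. An unadjusted p below 0.05 was held by 0 and 1 members, against 228 and 645 of the 12406 tested genes. The median log2 fold change was -0.10 (all genes 0.00), and all 48 lay between -0.33 and 0.13. Of the 48, 41 were negative, against 6263 of the 12406 tested genes. By experiment the median was -0.25, -0.13 and 0.01. Lower in all 3 experiments were 19 members, against 21.3% of all genes, and higher in all 3 were 0, against 20% of all genes. The median rested on 1 library, being 0.0018 without the proliferating knockdown library of experiment 5 and -0.23 without that of experiment 9.

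In quiescent cells the Stag2 hairpin raised 3 of the 48 genes, Dscc1, Dtl and Tcf19. edgeR called 3 higher and 0 lower, where it called 0.153% of all genes higher and 0.282% lower. With the experiment term it called 8 higher, against 1.59% of all genes, adding Pole, Wdhd1, Clspn, Rrm2 and Chaf1a. The median log2 fold change was 0.37 (all genes 0.02), and 45 of the 48 were positive, all but Rfc1, Pcna and Pold1, against 52.5% of all genes. All 3 knockdown libraries lay above all 3 controls for 21 members, a pattern that 10.2% of all genes showed. By role these were Rfc4, Rfc5 and Dscc1 of the clamp loaders, Prim1, Pold3 and Pole, Lig1 and Dna2, Cdc45 with Gins2, Gins3 and Gins4, Wdhd1, Rrm2 and Tyms, Chaf1a and Chaf1b, Atad2, and Orc6, Dtl and Tcf19.

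The calls without the experiment term depended on which libraries were in the fit. A fit with fewer libraries also has less power, and these 2 reasons for a lost call were not told apart. Leaving out the quiescent control of experiment 5 or of experiment 7, or the quiescent knockdown library of experiment 9, left 0 of the 48 called. Without the quiescent control of experiment 9 only Dscc1 was called, and without the quiescent knockdown library of experiment 5 only Dtl. In a fit to the 6 quiescent libraries alone 0 were called, with log2 fold changes of 2.96 for Dscc1, 1.35 for Dtl and 1.56 for Tcf19. DESeq2 called 7. The shares of all genes called in these fits are not reported here. With the experiment term and 1 library left out in turn, an alternative added after seeing the data, Dscc1 and Tcf19 passed in 12 of 12 fits, Chaf1a and Rrm2 in 11, Dtl in 10, Wdhd1 in 9, Pole in 6 and Clspn in 2. In fits without the experiment term, leaving out all 4 libraries of any 1 experiment left 0 called. The direction of these 8 genes was positive in every one of the fits.

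**Figure D3:**
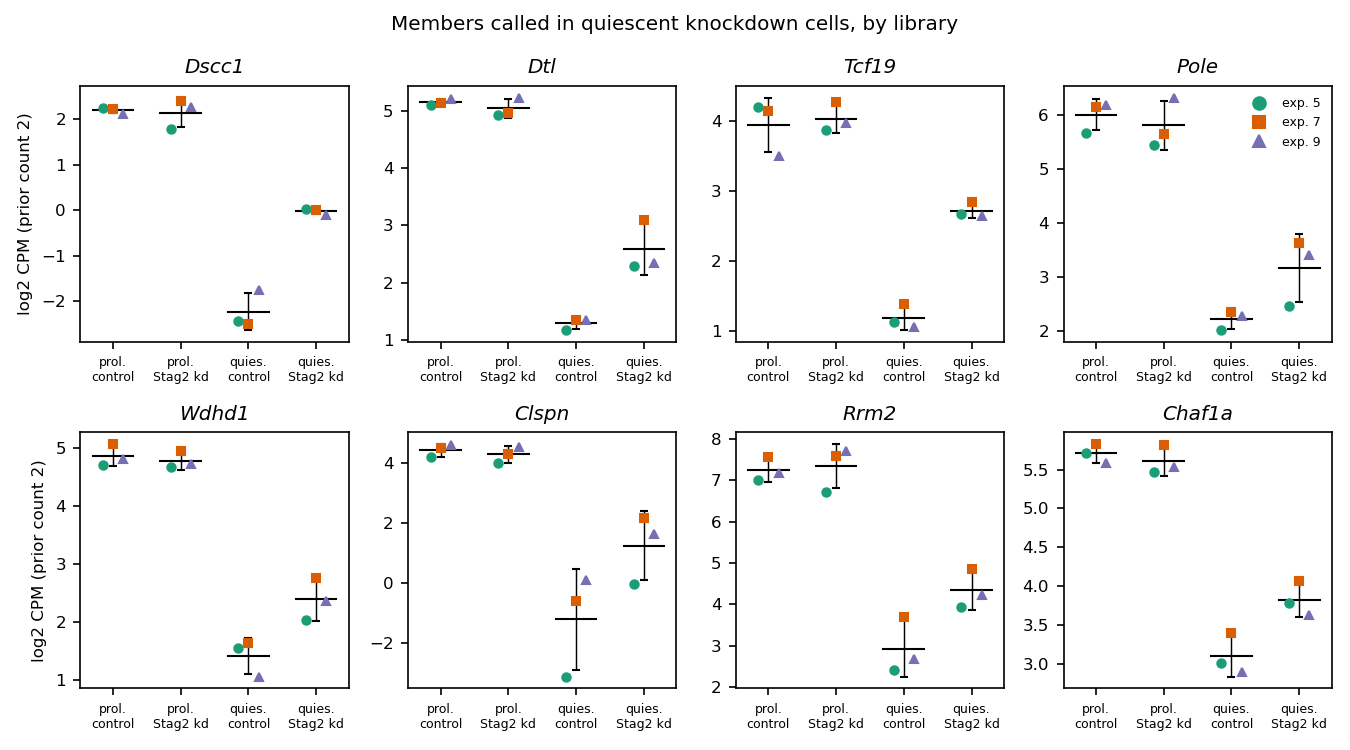
Level by library (log2 CPM, prior count 2) of the 8 genes that passed the threshold in quiescent knockdown cells with or without the experiment term. Points are libraries by experiment, lines are group means with SD (n = 3). In 7 of the 8 panels the quiescent knockdown libraries lie above the quiescent controls without overlap, Clspn being the exception, and the proliferating groups overlap in all 8.

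The size of the knockdown effect in quiescent cells differed between experiments. The median over members was 0.45 in experiment 5, 0.47 in experiment 7 and 0.20 in experiment 9. Positive were 43, 46 and 34 members, against 6661, 6467 and 6278 of the 12406 tested genes. Higher in all 3 experiments were 31 members, against 25.4% of all genes, and Rfc1 was lower in all 3. For 11 members the hairpin library was the lower one in all 3 proliferating experiments and the higher one in all 3 quiescent ones, which held for 1.66% of all genes. These were Rfc4, Chtf18, Pola1, Dna2, Cdc45, Wdhd1, Clspn, Chaf1a, Uhrf1, Atad2 and Orc6. Of the 8 genes called with the experiment term, Dscc1, Clspn and Dtl had their smallest difference in experiment 9, Pole and Wdhd1 in experiment 5, and Tcf19, Rrm2 and Chaf1a in experiment 7.

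Markers of cycling cells moved with these medians. The 8 such markers were Mki67, Top2a, Ccna2, Ccnb1, Cdk1, Bub1, Plk1 and Aurkb. In the fit over all libraries 8 of the 8 were positive in quiescent knockdown cells, against 52.5% of all genes. Within experiments 5, 7 and 9, 8, 8 and 7 markers were positive, against 6661, 6467 and 6278 of the 12406 tested genes. The exception was Ccnb1, at -0.42 in experiment 9. The markers had a median log2 difference of 1.44, 2.03 and 0.22 by experiment. Their summed level was 9.87, 29.6 and 54.9 CPM in quiescent controls and 26.5, 132.9 and 76.6 CPM with the Stag2 hairpin, so the 2 groups overlapped, against at least 525 CPM in every proliferating library. edgeR called 0 of the 8 in that contrast with or without the experiment term. Without the term 2 had an unadjusted p below 0.05 and with it 7, against 1489 and 2527 of the 12406 tested genes. In proliferating cells the marker medians were -0.53, -0.21 and 0.20, the same order of experiments as for the 48 genes. Their part in the results on the 48 genes was not tested.

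**Figure D4:**
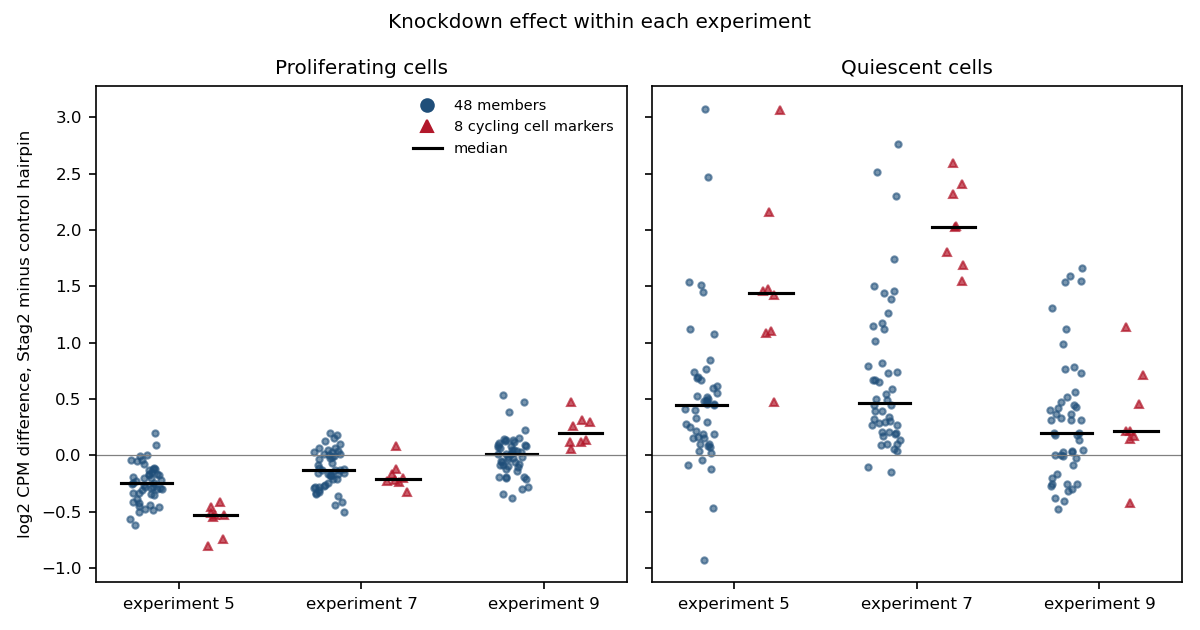
Log2 CPM difference between the Stag2 and the control hairpin within each experiment (vertical axis) for the 48 genes (circles) and 8 cycling cell markers (triangles), in proliferating and quiescent cells. Lines are medians. In quiescent cells the member medians are 0.45, 0.47 and 0.20 and the marker medians 1.44, 2.03 and 0.22 in experiments 5, 7 and 9.

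Whether the knockdown effect differed between the states was asked by the interaction. edgeR called 0 of the 48 without and 0 with the experiment term, and 0% of all genes in either fit. An unadjusted p below 0.05 was held by 14 and 19 members, against 219 and 590 of the 12406 tested genes. DESeq2 called 2, Dtl at 1.47 (adjusted p = 0.0431) and Tcf19 at 1.51 (adjusted p = 0.0492), and its share of all genes called is not reported here. The median interaction was 0.45 on the log2 scale (all genes 0.01), and 47 of the 48 were positive, against 51.5% of all genes. The largest were 3.01 ± 0.52 (SE, adjusted p = 0.637) for Dscc1, 2.52 ± 0.91 (SE, adjusted p = 1.00) for Clspn and 1.5 ± 0.31 (SE, adjusted p = 1.00) for Tcf19, the first 2 resting on quiescent controls of 0 to 16 counts. The smallest were -0.14 ± 0.18 (SE, adjusted p = 1.00) for Rfc1, 0.04 ± 0.18 (SE, adjusted p = 1.00) for Rfc2 and 0.07 ± 0.31 (SE, adjusted p = 1.00) for Rrm1. No single member thus passed the edgeR test of a difference between the states.

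Set against the proliferating library of the same hairpin and experiment, the median member kept 19.0%, 20.5% and 18.7% of its level in quiescent controls. With the Stag2 hairpin it kept 35.2%, 34.3% and 21.7%. The share was higher with the hairpin for 45, 47 and 35 members by experiment, and in all 3 experiments for 32. On the log2 scale of CPM the same difference was positive for 6677, 6250 and 6156 of the 12406 tested genes, and in all 3 for 16.4%. Roles kept different shares, with control medians over the members of 44.9% for single-stranded DNA binding, 28.3% for polymerases and primase and 27.4% for clamp and loaders, against 11.9% for fork protection and 10.7% for methylation maintenance. With the hairpin the same medians were 50.5%, 37.1%, 36.6%, 21.7% and 19.2%. The other roles lay between, and among them the helicase cofactors went from 20.6% to 37.8% and the origin and S phase genes from 13.7% to 29.3%. Pcna kept 32.7, 35.9 and 29.8 percent in controls and 40.2, 36.4 and 28.2 percent with the hairpin, while Dtl went from 6.26, 7.01 and 6.64 to 15.9, 27.2 and 13.4 percent.

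Other genes of the pathway were read from 2 lists. Of 35 other replication genes (origin licensing and firing factors, the MCM ring, small polymerase subunits, RNase H2 and histone chaperones), 27 were called lower and 0 higher in quiescent controls, against 11.7% and 8.33% of all genes. In the fit with the experiment term 30 were called lower and 0 higher, against 18.5% and 16.8% of all genes. The largest falls were -5.45 ± 0.67 (SE, adjusted p = 0.000389) for Pclaf, a PCNA-binding factor, -4.71 ± 0.57 (SE, adjusted p = 0.000357) for Ticrr, which helps fire origins, and -4.64 ± 0.29 (SE, adjusted p = 8.9e-06) for Mcm5, an MCM ring subunit. With the Stag2 hairpin in quiescent cells 1 was called higher, where 0.153% of all genes were. This was Mcm5, at 12.7, 19.3 and 11.7 CPM against 3.24, 6.61 and 5.55 in quiescent controls. The groups did not overlap, and the effect was 1.5 ± 0.27 (SE, adjusted p = 0.0451). With the experiment term Mcm3, at 0.74 ± 0.18 (SE, adjusted p = 0.0485), and Mcm6, at 0.54 ± 0.11 (SE, adjusted p = 0.0318), passed as well, where 1.59% of all genes were called higher. The list's median was 0.21, against 0.37 for the 48 genes and 0.02 for all genes.

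Of 27 other genes of nucleotide metabolism, 16 were called lower and 0 higher in quiescent controls, against 11.7% and 8.33% of all genes. In the fit with the experiment term 19 were called lower and 3 higher, against 18.5% and 16.8% of all genes, so the share called higher was below that of all genes. Among those that fell were Shmt1, serine hydroxymethyltransferase, at -2.00 ± 0.30 (SE, adjusted p = 0.00116), and Dck, deoxycytidine kinase, at -1.62 ± 0.21 (SE, adjusted p = 0.000493). The 3 called higher were Dguok at 0.44, Ctps2 at 0.43 and Tk2 at 0.32. Dguok and Tk2 are the mitochondrial deoxynucleoside kinases, and Ctps2 is a CTP synthase. With the Stag2 hairpin in quiescent cells edgeR called 0 of the 27, and 3 had an unadjusted p below 0.05, against 1489 of the 12406 tested genes. With the experiment term it called only Paics, of purine synthesis, as lower, at -0.48 ± 0.10 (SE, adjusted p = 0.0338), where 1.96% of all genes were called lower. The list's median in that contrast was 0.09, against 0.37 for the 48 genes and 0.02 for all genes.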

How the data were processed

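The table the authors deposited holds unnormalized read counts, one column for each library and one row for each gene symbol. The submitters' processing notes name Bowtie, TopHat, HTSeq and DESeq2 and the build mm10, without versions or roles. Per the labels, the libraries are polyA+ and stranded and ERCC spike-ins were added to the RNA. The table as used here holds 0 ERCC rows, and levels were not scaled to spike-ins.

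Tests used edgeR 4.0.16 under R 4.3.3. After the filterByExpr filter (minimum count 10), counts were scaled by TMM, fitted as 4 group means over all 12 libraries with glmQLFit, tested with glmQLFTest and adjusted by Benjamini-Hochberg over 12406 genes at 0.05, leaving 8 residual degrees of freedom. SE is the log2 fold change divided by the root of F. The model was run on simulated counts with large planted changes in well-counted genes and no effect of experiment. That run does not cover small changes or genes with few counts.

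The labels tie each experiment number to 1 batch, so same-numbered libraries are paired. Their deviations from the group means correlated at 0.526 on average over 18 pairs (0.225 to 0.789), against -0.259 over 36 other pairs. Deviations within a group cancel out, so the second mean follows closely from the first and is no separate evidence of pairing. The fit with an experiment term (6 residual degrees of freedom, replicate block) is the alternative, and it lowered the common biological coefficient of variation from 0.261 to 0.161. P-values measure the spread between these experiments of 1 cell line. No 2 replicates were identical, with a chi-square per degree of freedom between replicates of 37.5 or more. Intervals and floors (3 counts) cover counting error only.

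Other alternatives were DESeq2 1.42.0, other scalings, filters and fits, thinning to the smallest total, and leaving out libraries. The 48 genes and the other lists were chosen with earlier results of these data known, so their counts are descriptions and no list was tested. By the rule for named genes, every library's value is given for Stag2, for members past the threshold in a knockdown contrast with or without the experiment term, for the 3 largest and 3 smallest changes in quiescent controls and in the interaction, and for 1 chosen member of each role. Some values that this rule covers are not reported here. Gene positions and exon lengths are from GENCODE M21 (GRCm38.p6).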

Additional observations from a re-analysis of the deposited data

How the results depend on the processing

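The count of members called in quiescent knockdown cells, 3, depended most on the fit. It was 8 with the replicate block (experiment numbers pairing the libraries), 8 with the block after thinning all libraries to the smallest total, 7 with DESeq2 and 0 in a fit to the libraries of the contrast alone. Leaving out 1 library gave 0 to 3 without the block and 2 to 9 with it (6 or 7 in 7 of 12 fits). Leaving out 1 experiment, without the block, gave 0. The block changed no call of a member in proliferating knockdown cells, quiescent controls or the interaction. The interaction count was 2 with DESeq2 and 0 in every other fit. Apart from the replicate block, the shares of all genes called in these alternatives are not reported here. The members' median in quiescent knockdown cells, 0.37, ran from 0.27 to 0.51 over 36 alternatives. In proliferating knockdown cells the median reversed to 0.0018 without the knockdown library of experiment 5 and reached -0.23 without that of experiment 9. The quiescence median in controls, -2.29, ran from -2.40 to -2.23 with 1 library left out and was -2.36 without experiment 7, and the count of falls ran from 41 to 48 in controls and from 35 to 48 with the hairpin. The share of member windows with E2F-type letters, 58.7%, was 26.1% with 8-letter motifs (3.94% of tested genes' windows). No single-gene effect recomputed under these alternatives changed direction. Depth limits Dscc1 and Clspn, whose quiescent controls hold 0 to 16 counts each.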
